A study of Arabidopsis thaliana with 8 samples.

Results

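The genes described here are 7 root hair genes of Arabidopsis thaliana, chosen by the locus that their array probe is assigned to: RHD6 (AT1G66470), RSL2 (AT4G33880), RSL4 (AT1G27740), LRL3 (AT5G58010), RHD2 (AT5G51060), COW1 (AT4G34580) and PRP3 (AT3G62680). All 7 are among the 25665 loci on the array and the 20336 loci tested. Each is read by 1 probe, and each probe was well above background on all 8 arrays, so no member was lost to the filter on dim probes. The samples were whole Columbia-0 seedlings aged 2 weeks, 5 seedlings to a sample, grown at 23 °C under 16 h light and 8 h dark on MS agar with 1% sucrose. Wild type had 4 samples on medium without hygromycin. The other 4 samples carried 35S:MYB87-SRDX, a fusion of the R2R3-type MYB factor MYB87 with the SRDX repressor motif under the viral 35S promoter, which is active in most tissues, and they were on hygromycin. The labels call the seedlings of both groups T2, and do not say whether the transgenic seedlings came from 1 line. The transgene, the drug and the array slide changed together, since each group had its own slide, so these cannot be told apart.

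A root hair is a tubular outgrowth of a single epidermal cell of the root, and it takes up water and nutrients. Basic helix-loop-helix (bHLH) transcription factors start it: RHD6 acts early, in cells where the homeodomain factor GL2 does not repress it, and the related RSL2 and RSL4 act after it to drive and sustain growth. LRL3 belongs to another bHLH group needed for root hairs. The tip then grows through a local supply of reactive oxygen from the NADPH oxidase RHD2 (also RBOHC), membrane lipid signalling that needs the phosphatidylinositol transfer protein COW1, and wall proteins such as the proline-rich PRP3.

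Of the 7 genes, RSL2 was lower in MYB87-SRDX and the other 6 did not pass the test of the groups. RSL2 was 4.48-fold lower, and its lowest wild-type array lay above its highest MYB87-SRDX array. RHD6, RSL4, LRL3 and RHD2 also had lower means in MYB87-SRDX, with log2 differences from -0.95 to -0.69, but wild type itself varied by 3.19-fold to 3.89-fold in these genes and the groups overlapped. COW1 and PRP3 had higher means in MYB87-SRDX, again with overlapping groups. One lower call among 7 compares with 12.5% of all loci called lower, so the count says nothing about these genes as a set.

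Levels below are the processed signal of a probe as a percentage of the 75th percentile of all probes on the same array. Differences are on the log2 scale and are negative where MYB87-SRDX was lower. Standard errors (SE) and p-values come from limma fitted to all loci tested, and Benjamini-Hochberg adjustment covered all of these, with a threshold of 0.05. Levels of different probes are not compared.

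As a check of the labels, the MYB87 transcript (AT4G37780) had levels of 2.24%, 0.680%, 0.575% and 0.739% in wild type, above background on replicates 1 and 2. It had 5372%, 4587%, 4795% and 582% in MYB87-SRDX. Every MYB87-SRDX array was far above every wild-type array, and no exact fold is given because 2 of the 4 wild-type values were not well above background. Replicate 4 had the least MYB87. Of the 7 root hair genes, RSL2 and RHD2 were at their highest in MYB87-SRDX on that array, COW1 was at its lowest, and the other 4 were at neither end. Over all loci 3064 were called higher and 2540 lower, 27.6% in all, and with median scaling 2675 and 1381. The 75th percentile of the signal lay between 1539 and 2055.

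**Figure D1:**
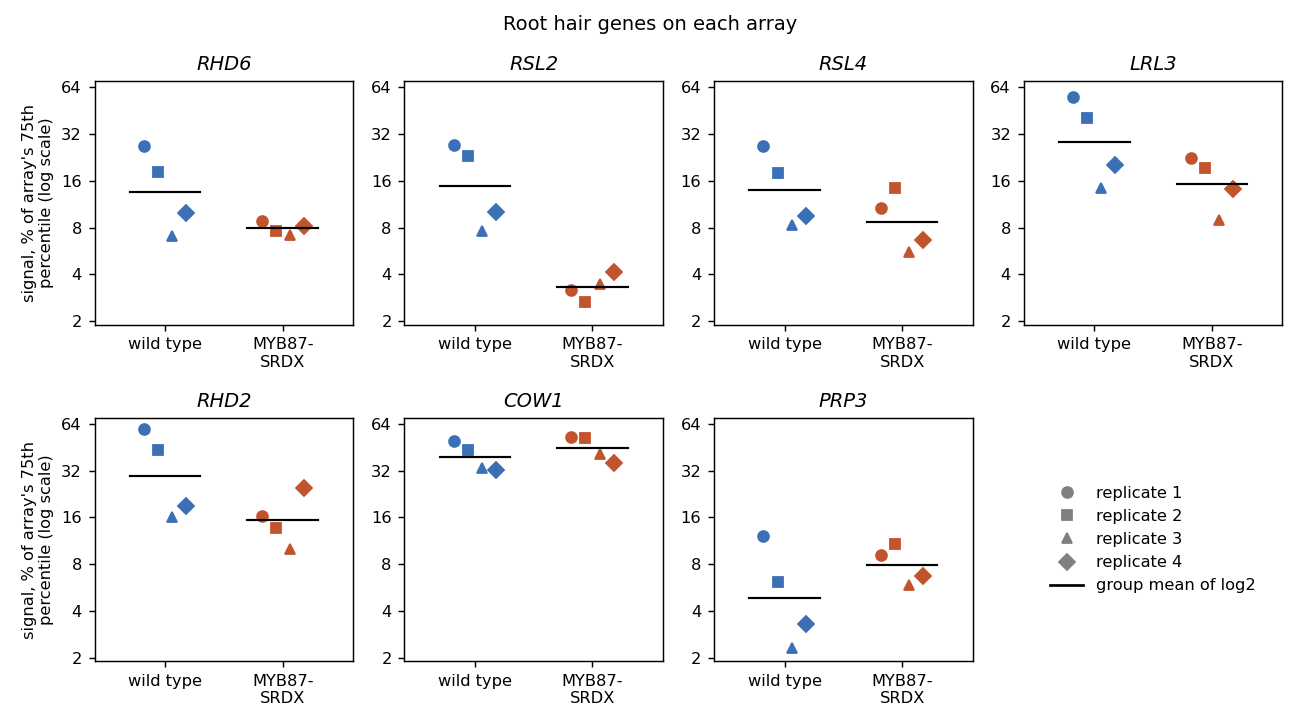
Level of each of the 7 root hair genes on each array, as a percentage of the array's 75th percentile on a log scale; symbols mark the replicate, colours the group and bars the group mean on the log2 scale. RSL2 lies between 2.65% and 4.16% in MYB87-SRDX and between 7.59% and 27.3% in wild type, while the groups overlap for the other 6 genes.

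Wild-type arrays differed widely in these genes. In all 7, wild-type replicates 1 and 2 both lay above replicates 3 and 4, an order held by 23.8% of all loci tested. Within MYB87-SRDX the lowest of the 4 values was that of replicate 3 in 5 of the 7 genes, which is the case for 30.3% of all loci. As these are whole seedlings, fewer root hair cells and less RNA per cell cannot be told apart.

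RHD6, the factor of root hair initiation, had levels of 26.7%, 18.1%, 7.09% and 9.88% in wild-type replicates 1 to 4. In MYB87-SRDX it had 8.80%, 7.55%, 7.22% and 8.19%. The MYB87-SRDX arrays were close together, within 1.22-fold, and lay between the lower pair of wild-type arrays. The log2 difference was -0.78 ± 0.38 (SE, n = 4 per group, limma adjusted p = 0.159) and a 95% interval from -1.65 to 0.09. Without wild-type replicate 3, the lowest of that group, the difference was -1.09 and passed, with an adjusted p of 0.0481. Without wild-type replicate 1, the highest, it was -0.45, with an adjusted p of 0.267.

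RSL2, one of the factors downstream of RHD6, had levels of 27.3%, 23.1%, 7.59% and 10.1% in wild type. In MYB87-SRDX it had 3.16%, 2.65%, 3.47% and 4.16%. Every MYB87-SRDX array lay below every wild-type array, as was so in either direction for 30.8% of loci and in this direction for 13.1%. The log2 mean was -2.75 ± 0.90 (SD, n = 4) in wild type and -4.91 ± 0.27 (SD, n = 4) in MYB87-SRDX. RSL2 fell by 2.16 ± 0.41 (SE) on the log2 scale, with a 95% interval from -3.10 to -1.22 and an adjusted p (limma) of 0.00858. By size RSL2 ranked 75 among the 2540 loci called lower, and 494 loci, 2.43% of those tested, were called and at least 2-fold lower. The planned normexp background correction ended the call, with a difference of -0.76 and an adjusted p of 0.497. After normexp without 8 spots of very high local background, a setting chosen after seeing the data, the difference was -1.26, with an adjusted p of 0.0143. Leaving out each array in turn gave differences from -2.48 to -1.87, all past the threshold.

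RSL4, the factor that sets how long a hair grows, had levels of 26.7%, 17.9%, 8.35% and 9.53% in wild type. In MYB87-SRDX it had 10.6%, 14.4%, 5.58% and 6.68%. The upper 2 arrays of MYB87-SRDX lay above the lower 2 of wild type. The log2 difference was -0.69 ± 0.44 (SE), with a 95% interval from -1.69 to 0.32 and an adjusted p (limma) of 0.268. Whether RSL2 and RSL4 differed from each other in their response was not tested.

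LRL3 had levels of 55.7%, 40.2%, 14.3% and 20.1% in wild type and 22.5%, 19.3%, 8.96% and 14.2% in MYB87-SRDX. Its groups overlapped over the lower pair of wild-type arrays. The log2 difference was -0.89 ± 0.47 (SE), with a 95% interval from -1.96 to 0.19 and an adjusted p (limma) of 0.187.

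Of the genes of the growing tip, RHD2 had levels of 58.9%, 43.2%, 16.0% and 18.9% in wild type. In MYB87-SRDX it had 16.4%, 13.8%, 9.99% and 24.6%, and replicate 4 was the only one of these above both lower wild-type arrays. The log2 difference was -0.95 ± 0.46 (SE), with a 95% interval from -2.01 to 0.11 and an adjusted p (limma) of 0.158.

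COW1 had the smallest range of the 7 in wild type, at 1.52-fold. Its levels were 49.3%, 43.1%, 33.3% and 32.5% in wild type and 52.7%, 52.0%, 41.1% and 35.9% in MYB87-SRDX. The log2 difference was 0.20 ± 0.18 (SE, limma adjusted p = 0.419), and the 95% interval from -0.21 to 0.61 excludes a fall of the size seen in RSL2.

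PRP3, the wall protein, had levels of 12.2%, 6.13%, 2.32% and 3.31% in wild type and 9.20%, 10.9%, 5.89% and 6.72% in MYB87-SRDX. Its range in wild type was 5.26-fold, and 1.30% of loci had one as large. Wild-type replicate 1 was above all the MYB87-SRDX arrays, and replicates 3 and 4 were below all of them. The log2 difference was 0.70 ± 0.49 (SE), with a 95% interval from -0.43 to 1.82 and an adjusted p (limma) of 0.314. Without wild-type replicate 1 the difference was 1.14, with an adjusted p of 0.0489, and without replicate 3 it was 0.34, with an adjusted p of 0.603.

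**Figure D2:**
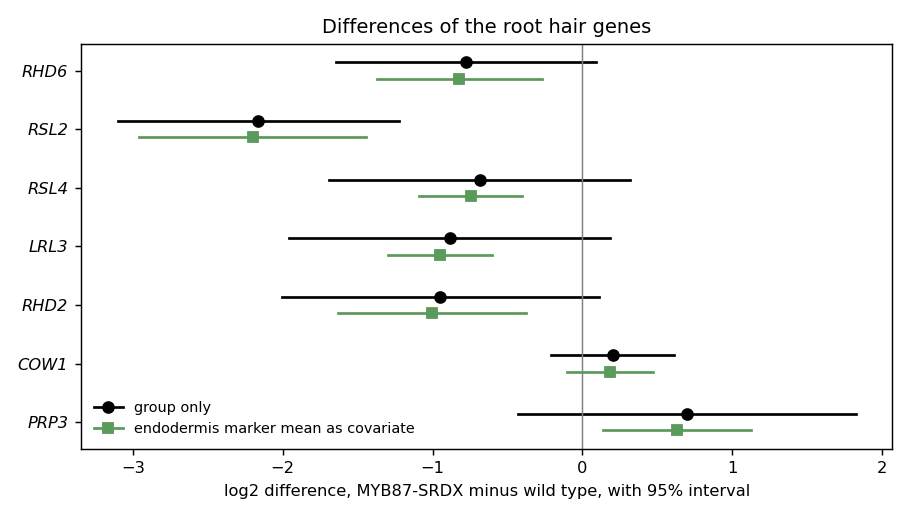
Log2 difference of each root hair gene, MYB87-SRDX minus wild type, with its 95% interval, from the fit with the group alone (circles) and from the fit with the endodermis marker mean as a covariate (squares). The interval of RSL2 lies below 0 in both fits, while those of RHD6, RSL4, LRL3 and RHD2, which lie below 0 with the covariate, and of PRP3, which lies above it, cross 0 with the group alone.

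Other markers of the root also varied between the arrays of a group, some in the same order as the root hair genes and some not. The mean of the 8 endodermis markers (Casparian strip genes such as CASP1, ESB1 and MYB36), each taken relative to its mean over all arrays on the log2 scale, was 0.86, 0.39, -0.78 and -0.59 in wild-type replicates 1 to 4. In MYB87-SRDX it was 0.26, 0.62, -0.85 and 0.10. The mean of the 7 root hair genes on the same scale was 1.24, 0.74, -0.51 and -0.18 in wild type and -0.12, -0.16, -0.70 and -0.32 in MYB87-SRDX. Both means were high on wild-type replicates 1 and 2 and low on replicate 3 of either group. The endodermis means of the groups differed by 0.06, and none of the 8 markers passed the limma test. The markers did not all move alike: CASP5 alone was below 0, at -0.83, and the highest was MYB36, at 0.41. The mean of the 3 root cap markers ranged from -1.21 to 0.84 in wild type and from -0.17 to 0.51 in MYB87-SRDX. These markers were dim, with SMB well above background on 5 of 8 arrays and BRN2 on 7. Their range may thus partly be noise near background. The mean of the 5 root uptake markers had another order, with 0.21, 1.00, -1.78 and 0.88 in wild type. The 5 shoot markers, such as RBCS1A of Rubisco, stayed between -0.19 and 0.30 on all 8 arrays.

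**Figure D3:**
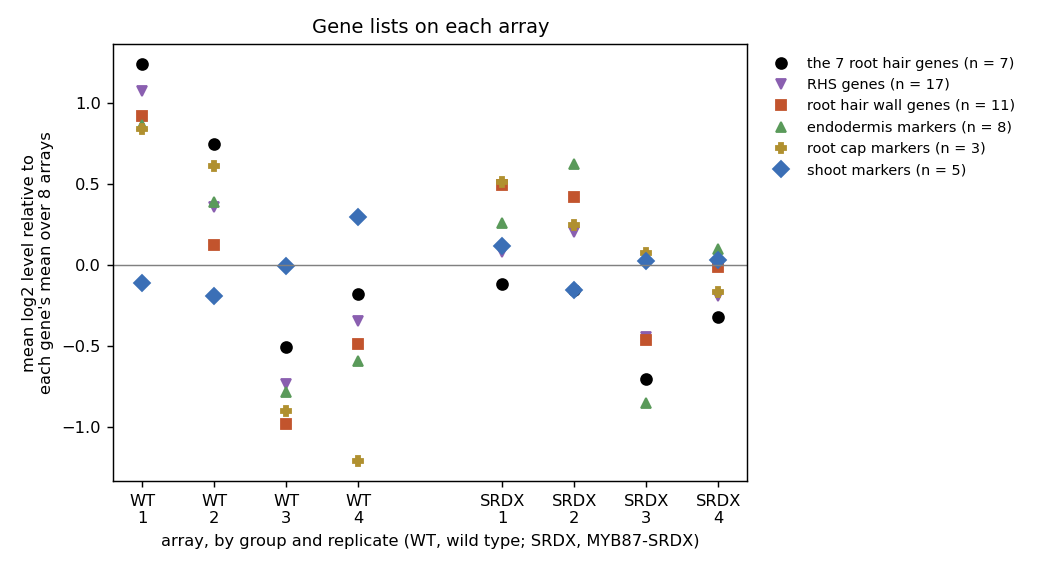
Mean log2 level of gene lists on each array, each gene taken relative to its mean over the 8 arrays. The 7 root hair genes reach 1.24 on wild-type replicate 1 and -0.70 on MYB87-SRDX replicate 3, and the shoot markers stay between -0.19 and 0.30. The root cap markers are dim, with SMB well above background on 5 of the 8 arrays.

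Over the 8 arrays, and as a description only, Pearson's r with the endodermis mean was 0.84 for PRP3, 0.81 for RSL4, 0.76 for LRL3, 0.75 for COW1, 0.64 for RHD2, 0.62 for RHD6 and 0.26 for RSL2. All these points share the array's own scaling. RSL2 had the lowest r of the 7, and this value includes its difference between the groups. After centring within each group and pooling both, r was 0.65 for RSL2 and between 0.79 and 0.96 for the other 6. On the MYB87-SRDX arrays alone RSL2 did not follow the endodermis mean: it was lowest on replicate 2, where that mean was highest.

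When the endodermis mean of each array was subtracted, RSL4 lay between 0.31 and 0.41 on the wild-type arrays and between -0.82 and -0.13 on the MYB87-SRDX arrays. RSL2 lay between 0.90 and 1.33 in wild type and between -2.02 and -0.16 in MYB87-SRDX. LRL3 and RHD2 were also apart, at 0.24 to 0.56 against -0.73 to -0.15 and at 0.37 to 0.63 against -1.25 to 0.11. RHD6 overlapped only through MYB87-SRDX replicate 3, which had 0.33 against a wild-type range from 0.24 to 0.52. PRP3 ran the other way, with -0.64 to 0.11 in wild type and 0.01 to 0.77 in MYB87-SRDX. COW1 overlapped widely, with -0.62 to 0.46 against -0.32 to 0.83. The share of all loci whose groups lie apart after this subtraction was not computed, so the separation has no background here. Within MYB87-SRDX the subtraction raised the SD of RSL2 from 0.27 to 0.79 and that of RHD6 from 0.13 to 0.58. That SD also rose for RHD2 and COW1 and fell for RSL4, LRL3 and PRP3.

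**Figure D4:**
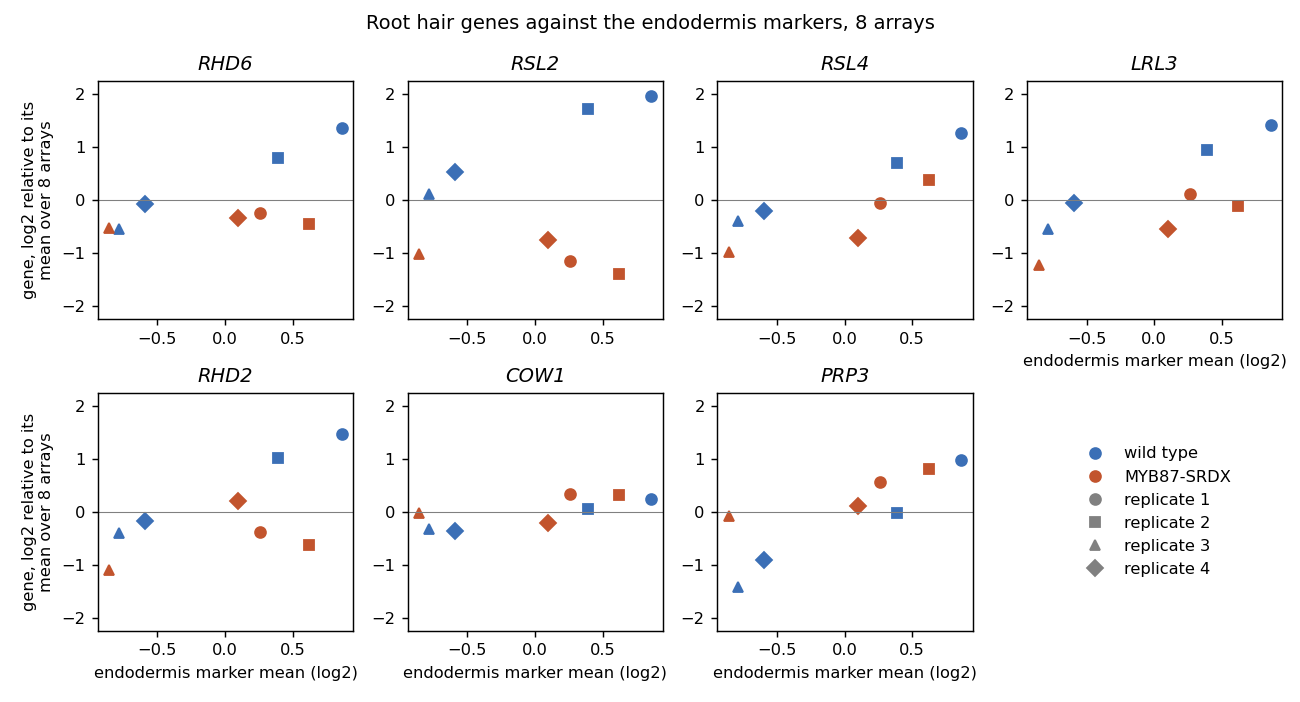
Level of each root hair gene against the mean of the 8 endodermis markers on the same array, both log2 and relative to their means over the 8 arrays. The wild-type arrays of RSL4 run parallel to the endodermis mean, and the 4 MYB87-SRDX arrays of RSL2 lie below the 4 wild-type arrays whatever that mean is.

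With the endodermis mean as a covariate, a fit chosen after seeing the data and made over all loci with a single slope for both groups, 5 of the 7 genes were called lower, against 15.4% of all loci called lower, 16.5% called higher and 31.9% in all. RSL2 then had a difference of -2.20 ± 0.32 (SE, limma adjusted p = 0.0043), and LRL3 one of -0.95 ± 0.15, with an adjusted p of 0.00517. The others called were RHD2 at -1.00 ± 0.27, RHD6 at -0.82 ± 0.24 and RSL4 at -0.75 ± 0.15. PRP3 had 0.63 ± 0.21, with an adjusted p of 0.0552, and COW1 0.18 ± 0.12, with an adjusted p of 0.276. The sizes moved by 0.07 or less from the fit with the group alone, and the standard errors fell for all 7. Of the 8 endodermis markers themselves, 2 were called higher and 1 lower in this fit. What sets the endodermis mean of an array was not tested.

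Every pair of the 7 genes had a positive correlation when both groups were pooled after centring each gene within its group. This did not hold for every pair within MYB87-SRDX alone, where RSL2 was highest on replicate 4 and COW1 was lowest on it. Of the 21 pairs, Pearson's r over the 8 arrays ran from -0.13, between RSL2 and COW1, to 0.95, between RSL4 and LRL3. After centring each gene within each group it ran from 0.50 to 0.95. These values describe 8 points that share the scaling of each array.

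The loci most like the mean profile of the 7 genes over the 8 arrays began with EXO70C2, of the EXO70 family (r = 0.99). Next came LAF1, a MYB factor (r = 0.99), AT1G30870 (r = 0.98), CNGC14, a calcium channel of the root hair tip (r = 0.98), and AT3G47050 (r = 0.98). After centring within groups the loci most like the profile were AT1G30870, AT5G61550, AT1G65570, EXO70C2 and AT2G04680, with r between 0.99 and 1.00. None of these 8 loci passed the limma test between the groups. EXO70C2 had a difference of -0.49 ± 0.35 (SE), with an adjusted p of 0.323, and CNGC14 one of -0.34 ± 0.34, with an adjusted p of 0.473.

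Around the 7 genes, 60 of 63 further loci of the pathway were tested, in 5 lists that share 2 loci. Of these 60, 3 rose, 9 fell and 48 did not pass, beside 15.1% of all loci called higher and 12.5% called lower. Their median difference was -0.21, against 0.01 over all loci tested. Wild-type replicates 1 and 2 both lay above replicates 3 and 4 in 41 of the 60, an order held by 23.8% of all loci tested.

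**Figure D5:**
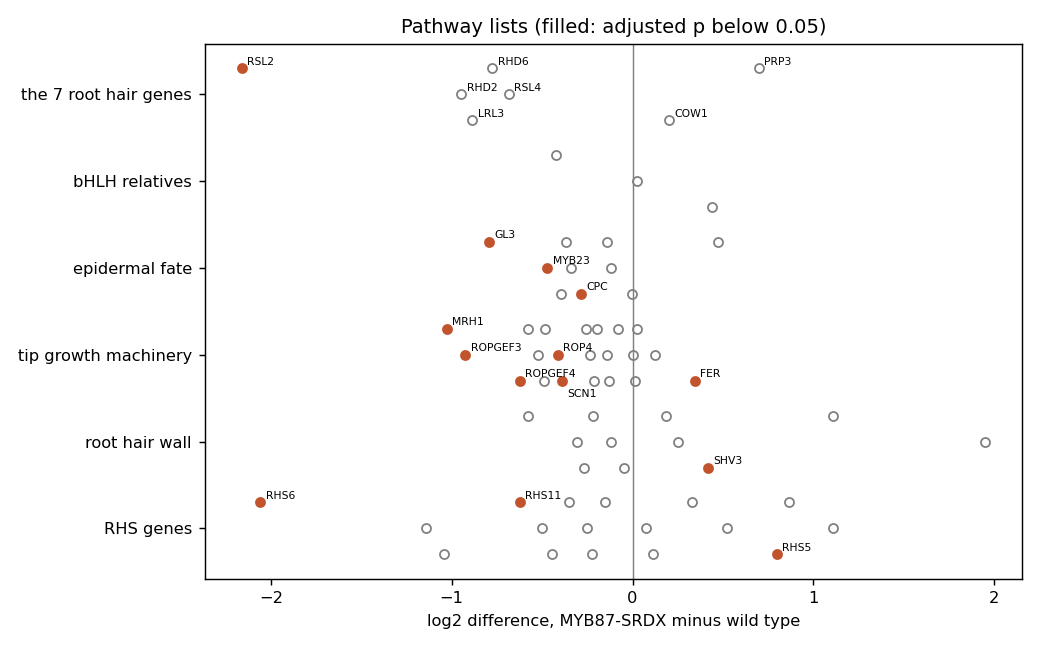
Log2 difference, MYB87-SRDX minus wild type, of each tested locus of the 7 root hair genes and of 5 lists of the pathway; filled points passed the limma test at an adjusted p below 0.05 and are named. RSL2 lies at -2.16, and most points lie within 1 of 0. RHS6, well above background on 2 of 4 MYB87-SRDX arrays, has no exact place. The same holds for AT2G14760, well above background in wild type on replicate 1 only.

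Among the 5 bHLH relatives, the partner of RHD6 called RSL1 was well above background on 2 arrays only, wild-type replicates 1 and 2, and was not tested. The 3 tested relatives did not pass. LRL2 had a difference of -0.43 ± 0.16 (SE), with an adjusted p of 0.0753, LRL1 0.03 ± 0.24, with an adjusted p of 0.947, and AT2G14760 0.44 ± 0.41, with an adjusted p of 0.443 by limma.

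Of 10 epidermal fate genes, which decide between hair and non-hair cells, none rose, 3 fell and 7 did not pass. GL3, a bHLH partner of the MYB factors of this switch, fell by 0.79 ± 0.17 (SE, limma adjusted p = 0.0128). It also acts in leaf trichomes, as do several of these genes, so whole seedlings mix both organs. CPC, a small MYB that promotes the hair fate, fell by 0.28 ± 0.07 (adjusted p = 0.026) and lost its call in 10 of 19 alternatives, with levels of 49.3% to 60.8% in wild type and 45.1% to 46.7% in MYB87-SRDX. MYB23 fell by 0.47 ± 0.15, with an adjusted p of 0.0484, and lost its call in 12 of 19 alternatives. Its wild-type replicate 1, at 145%, lay within the MYB87-SRDX range of 143% to 153%. GL2, which represses RHD6, had -0.34 and did not pass. With normexp without the spots of high background GL3 had -0.21 and did not pass, and with the planned normexp it had 0.39. GL3 was dim, though well above background on 8 arrays, with log2 mean levels of -5.49 in wild type and -6.29 in MYB87-SRDX.

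Of 21 genes of the tip growth machinery, 1 rose, 5 fell and 15 did not pass. MRH1, a receptor-like kinase needed for normal root hairs, had levels of 103%, 76.4%, 58.0% and 57.7% in wild type and 34.1%, 32.9%, 35.4% and 38.2% in MYB87-SRDX. It fell by 1.03 ± 0.18 (SE, limma adjusted p = 0.00703), and its groups did not overlap, as was so for 30.8% of all loci in either direction. With the planned normexp it had -0.88 and did not pass (adjusted p = 0.0585). ROPGEF3 and ROPGEF4, which act at the site where a hair forms, fell by 0.93 ± 0.23 and 0.62 ± 0.19. With normexp without the spots of high background they had -0.22 and -0.48, neither past the threshold. With the planned normexp the sign of ROPGEF3 turned, at 0.36. In all, ROPGEF3 kept its call in 13 of 19 alternatives, and ROPGEF4 lost its call in 10. ROPGEF3 was dim, with log2 mean levels of -5.27 in wild type and -6.20 in MYB87-SRDX. SCN1, which keeps hair growth to a single site of the cell, fell by 0.39 ± 0.08. It lost its call with median scaling (adjusted p = 0.112) and with the authors' values (adjusted p = 0.114). ROP4 fell by 0.41 ± 0.09. It had -0.09 with normexp without the spots of high background and 0.34 with the planned normexp. FER, a receptor kinase of wall sensing, rose by 0.35 ± 0.11, with an adjusted p of 0.0461, and kept its call in 7 of 19 alternatives. RHD3, RHD4 and actin ACT2 had differences of -0.08, 0.00 and 0.03.

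Of 11 root hair wall genes, 1 rose, none fell and 10 did not pass. SHV3, a GPI-anchored protein of the cell surface, rose by 0.42 ± 0.10 (SE, limma adjusted p = 0.0227). Its groups did not overlap, and it lost its call in 6 of 19 alternatives, the authors' values among them (adjusted p = 0.104). The expansins EXPA7 and EXPA18, which loosen the wall at hair emergence, had -0.31 and -0.27. Chosen after their values were seen, XTH26, a xyloglucan enzyme, had a difference of 1.95 ± 0.70, with an adjusted p of 0.072, and PRP1, the relative of PRP3, had 1.11 ± 0.52, with an adjusted p of 0.146. Both varied as PRP3 did in wild type, by 8.88-fold and 4.51-fold. With the endodermis mean as a covariate they had 1.86 ± 0.26 and 1.04 ± 0.26, with adjusted p values of 0.00354 and 0.0229. In the same fit SHV2, another GPI-anchored protein, had -0.63 ± 0.09, with an adjusted p of 0.00425. Of the 60 pathway loci tested, 5 were called higher and 15 lower in that fit, beside 16.5% and 15.4% of all loci.

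Of 18 genes catalogued as root hair specific (RHS), 17 were tested, with 1 rising, 2 falling and 14 not past the threshold. RHS6 (AT1G51880) had levels of 7.69%, 5.15%, 2.52% and 3.04% in wild type. In MYB87-SRDX it had 0.921%, 1.13%, 0.917% and 1.06%, well above background on 2 of the 4 arrays. It was tested because of its wild-type levels alone, so its measured fall of 2.06 ± 0.33 (SE, limma adjusted p = 0.00488) is set against values at the edge of detection. The difference was -0.66 with normexp without the spots of high background, and -0.02 with the planned normexp (adjusted p = 0.988). RHS5, the 14-3-3 protein gene GRF11, rose by 0.80 ± 0.10, with an adjusted p of 0.00202. The other fall was ROPGEF4, which the list holds as RHS11. Chosen after their values were seen, RHS16 had -1.14 ± 0.41 (SE, limma adjusted p = 0.0702) and RHS8 -1.04 ± 0.51 (adjusted p = 0.163). With the endodermis mean as a covariate they had -1.18 ± 0.34 and -1.11 ± 0.13, with adjusted p values (limma) of 0.0375 and 0.00239. Uncalled genes also went the other way. RHS7, the PRP1 given above, had 1.11 ± 0.52. RHS1, well above background on 6 of 8 arrays, had 0.86 ± 0.64. Of the 17 tested, 10 had a difference below 0.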

How the data were processed

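Total RNA was labelled with Cy3 and hybridised to 8 one-colour Agilent arrays, 4 per group. The deposited scanner tables hold linear spot intensity values and, per the submitters' processing notes, came from the program Agilent Feature Extraction, version 9.1.3.1. The authors' deposited value table holds the same processed intensity times a constant (0.00109 for wild type, 0.00117 for MYB87-SRDX).

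Spots with an outlier flag were dropped. From the log2 processed signal, the 75th percentile of that array's non-control spots was subtracted. Probes had to be well above background in 3 or more samples of either group, and a locus with several was represented by its brightest. Groups were compared with limma 3.58.1 (lmFit, eBayes) in R 4.3.3. The limma fit and the p-value adjustment were tested on simulated locus values with independent noise. The earlier steps were not tested in this way. The rule for named genes took the 7 members, MYB87, loci of each pathway list past the threshold (at most 6), and the 5 loci most like the members by each measure. Other loci named, which did not pass or were not tested, fall outside that rule and were chosen after their values were seen. Members and lists were chosen with earlier results of these data known. Symbols came from the TAIR10.1 RefSeq gene table, which held all 96 listed loci. The files name no genome build, so no coordinates are given. Nothing in the labels says that samples came from separate cultures, so the spread behind the p-values may be partly technical. The number of arrays limits precision. Normexp used the median spot signal, as no mean was given. Alternatives changed the scaling, background correction, dim-probe filter, probe summary, variance trend and replicate block, used the authors' values, or left out 1 array. The endodermis covariate and a normexp run without 8 spots of local background above 200 were added after seeing the data.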

Additional observations from a re-analysis of the deposited data

Results flagged for a closer look

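An array far from the other 3 of its group was found in 5 of 40 groups of 4 values examined, for the 7 root hair genes, MYB87 and the called loci of the pathway. Chance flags about 1 in 20 such groups. No root hair gene of the 7 was among them. MYB87 on MYB87-SRDX replicate 4 had a log2 level of 2.54 against 5.52 to 5.75 on the other replicates. MYB23 had 0.54 on wild-type replicate 1 against 1.16 to 1.21, and 0.62 on MYB87-SRDX replicate 1 against 0.52 to 0.53. SCN1 had 0.32 on MYB87-SRDX replicate 3 against 0.06 to 0.07. ROPGEF3 had -6.60 on MYB87-SRDX replicate 1 against -6.08 to -6.05.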

How the results depend on the processing

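None of the 7 root hair genes changed sign in any of 19 alternatives, and RSL2 kept its call in 18. Run as planned, normexp gave RSL2 -0.76, not past the threshold. On MYB87-SRDX replicate 4 it took spots of local background up to 27603 into its fit and set that array's background at -526, against -5.42 to 10.6 on the others. It left 0 members lower, 765 loci higher and 471 lower, and turned GL3 to 0.39, ROP4 to 0.34 and ROPGEF3 to 0.36. The authors' values gave 1102 loci higher and 1095 lower, and median scaling, which moved the median of all loci from 0.01 to 0.10, gave 1381 lower. With the endodermis covariate 5 members were lower, with RHD6 at -0.82, RSL4 at -0.75, LRL3 at -0.95 and RHD2 at -1.00. With the replicate block there were 1812 loci higher and 1800 lower, and 2 members lower, RSL2 and LRL3 (-0.89, adjusted p of 0.0267). Deviations of same-numbered arrays correlated at 0.09, 0.09, 0.16 and -0.22, and not every array correlated best with its own number.

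Leaving out each array in turn gave 1556 to 3088 loci higher and 1371 to 2899 lower, the lowest counts without wild-type replicate 2. Without MYB87-SRDX replicate 1 there were 1766 and 1505, and without wild-type replicate 3 there were 1895 higher. Members called higher ranged from 0 to 1 (PRP3, without wild-type replicate 1) and lower from 1 to 2 (RHD6 beside RSL2, without wild-type replicate 3). Differences ran from -1.09 to -0.45 for RHD6, from -2.48 to -1.87 for RSL2, from -0.93 to -0.37 for RSL4, from -1.21 to -0.56 for LRL3, from -1.24 to -0.62 for RHD2, from 0.12 to 0.32 for COW1 and from 0.34 to 1.14 for PRP3. The causes of the other changes were not tested.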

Other observations

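Of the 5 root uptake markers, IRT1 and FRO2 had the widest ranges in wild type and varied between arrays in another order than the root hair genes. This does not describe the whole list. With the endodermis covariate the SE of PHT1;1 fell from 0.35 to 0.21 and that of MTPA2 from 0.40 to 0.27. Those of IRT1, FRO2 and NRT2.1 changed little. IRT1, the main iron transporter of the root epidermis, had levels of 16.6%, 66.6%, 2.73% and 47.0% in wild-type replicates 1 to 4 and of 19.7% to 38.0% in MYB87-SRDX. FRO2, the ferric reductase that acts with it, had 9.38%, 33.0%, 1.94% and 45.4% in wild type and 5.62% to 14.3% in MYB87-SRDX. Wild-type replicate 3 was lowest for both, and replicate 4 was high for both although it was among the low arrays for all 7 root hair genes.

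Genes of tip growth in pollen tubes were at background in these seedlings. RBOHH, ANX1, ANX2 and VGD1 were not well above background on any of the 8 arrays, and RBOHJ was on 1, so none of the 5 was tested.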
